A study of Mus musculus with 2 samples.

Results

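The testis-specific serine kinases are encoded in the mouse by 6 genes, Tssk1 to Tssk6, and their transcripts were followed across the stages of spermatid development in single testis cells. Mice that carry Alkbh5 (WT) were compared with mice that lack it (KO). The genes were taken by name, with earlier results of these data known, and all 6 were found among the 36547 gene symbols of the 2 libraries. ALKBH5 removes the N6-methyladenosine mark from RNA, and the study asked how its loss alters gene expression in each cell type of the testis.

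TSSK proteins are serine/threonine kinases made almost only in germ cells after meiosis, where a round haploid spermatid builds an acrosome and a flagellum, replaces its histones by protamines and becomes a sperm. TSSK1 and TSSK2 bind and phosphorylate the scaffold protein TSKS and are needed together for male fertility. TSSK4 acts on the outer dense fibre protein ODF2, and TSSK6 is needed for the exchange of histones for protamines.

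One library was made from WT testis and 1 from testis lacking both copies of Alkbh5 (Alkbh5-/-), both of strain C57BL/6 at 12 weeks. The KO animals came from crosses of heterozygous mice. The introduction of the study describes 1 testis per genotype and the methods 3 mice per genotype, so a library may pool animals, and with 1 library each no difference between the genotypes has a replicate check. No p-value is therefore given, and every interval below is a 95% interval for counting error only.

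The WT library held 5756 cell barcodes and 80283221 unique molecular identifiers (UMIs, each standing for 1 captured RNA molecule), and the KO library held 7012 barcodes and 82056760 UMIs. Alkbh5 itself had 607 UMIs in WT (560 to 657) and 5 in KO (1.62 to 11.7). The libraries had 45 barcode sequences in common. Cells were grouped into 15 clusters, with the 6 Tssk genes kept out of the genes that defined them, and the clusters were named from marker genes. Of the 11 germ cell clusters, 4 were round spermatid-like and 3 were sperm-like, a class that here takes in the elongating and condensing spermatids. Where a class held several clusters, each is called by 1 of its leading genes. From first to last the 7 spermatid clusters were early-stage round, mid-stage round, late-stage round (Cd46), late-stage round (Cst13), sperm-like (Prss58), sperm-like (Prm1) and sperm-like (Car2). Tssk6 was itself among the leading genes of the last of these.

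KO cells were fewer in the later clusters. Sperm-like (Prss58), (Prm1) and (Car2) cells made up 10.02%, 17.9% and 9.80% of WT barcodes but 6.03%, 6.70% and 2.22% of KO barcodes. Levels are therefore given within clusters, as UMIs of the gene per 1000000 UMIs of the cluster (CPM). A molecule was counted once, near its 3′ end, and no length correction was made, so levels are compared between clusters for 1 gene and not between genes.

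Tssk1 and Tssk2 are a tandem pair of single-exon genes on chromosome 16 (GENCODE vM21, GRCm38). Tssk1 lies at chr16:17894223-17897922 and Tssk2 at chr16:17898637-17900024, both on the plus strand and 714 bases apart. The other members stand alone, with Tssk3 at chr4:129489014-129491022 on the minus strand (2 exons), Tssk4 at chr14:55650184-55652539 on the plus strand (4 exons), Tssk5 at chr15:76371952-76374938 on the minus strand (8 exons) and Tssk6 at chr8:69902184-69903518 on the plus strand (1 exon). The coding sequences of Tssk1 and Tssk2, of 1095 and 1074 bases, were identical at 83.5% of 1036 aligned positions. Their longest identical run was 113 bases, shorter than a read of 150 bases, and in the last 400 bases of the transcripts it was 8 bases. The other 14 pairs of members were identical at 63.5% to 69.0% of aligned coding positions.

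The bases just before the start of Tssk1 and Tssk2 are shown because this pair began together and then parted in the data. RefSeq gave a window upstream of the start (GRCm38.p6) for 5 of the 6 genes, all but Tssk5. Positions are counted from the RefSeq start, which differs from the GENCODE start for Tssk1 and Tssk3. The window of Tssk3 lies within the GENCODE gene given above. The last 100 bases before each start are printed 5′ to 3′ on the plus strand, and capitals mark TGACTTCA or its reverse complement TGAAGTCA. The first is chr16:17894103-17894202 and the second chr16:17898537-17898636, and part of each lies in an exon of a noncoding transcript of Dgcr2 on the minus strand.
Tssk1: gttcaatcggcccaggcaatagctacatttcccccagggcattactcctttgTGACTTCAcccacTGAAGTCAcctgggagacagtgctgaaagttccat
Tssk2: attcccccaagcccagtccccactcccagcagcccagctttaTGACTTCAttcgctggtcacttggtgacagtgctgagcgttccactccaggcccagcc

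These windows were identical at 61 of 87 aligned positions (70.1%), against 45.7% to 63.2% for the other pairs of members. TGACTTCA was chosen for the search after the sequences had been read. On either strand it stood at bases 48 to 41 and 35 to 28 upstream of Tssk1 and at bases 58 to 51 upstream of Tssk2, and in none of the windows of Tssk3, Tssk4 and Tssk6. Of the 32851 windows of 250 bases in the RefSeq table, 1.31% held it. TGACGTCA, the palindromic cAMP response element that CREM binds, was in 0 of the 5 member windows and in 1.55% of all windows. TATAAA was in 0 of the 5 and in 12.4% of all windows. No match of 1 motif overlapped a match of another.

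Each member had its own window of expression in WT spermatids, and the 6 peaks ran from the mid-stage round cluster to the last sperm-like cluster. Tssk4 and Tssk5 were highest in mid-stage round cells, Tssk1 in late-stage round cells, Tssk2 in sperm-like (Prss58) cells, and Tssk3 and Tssk6 in sperm-like (Car2) cells. Thus 3 of 6 members peaked in a sperm-like cluster. The order of the 6 peaks was the same in KO. Spermatids held 97.2% to 98.0% of the UMIs of each member in WT and 89.8% to 94.8% in KO.

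**Figure D1:**
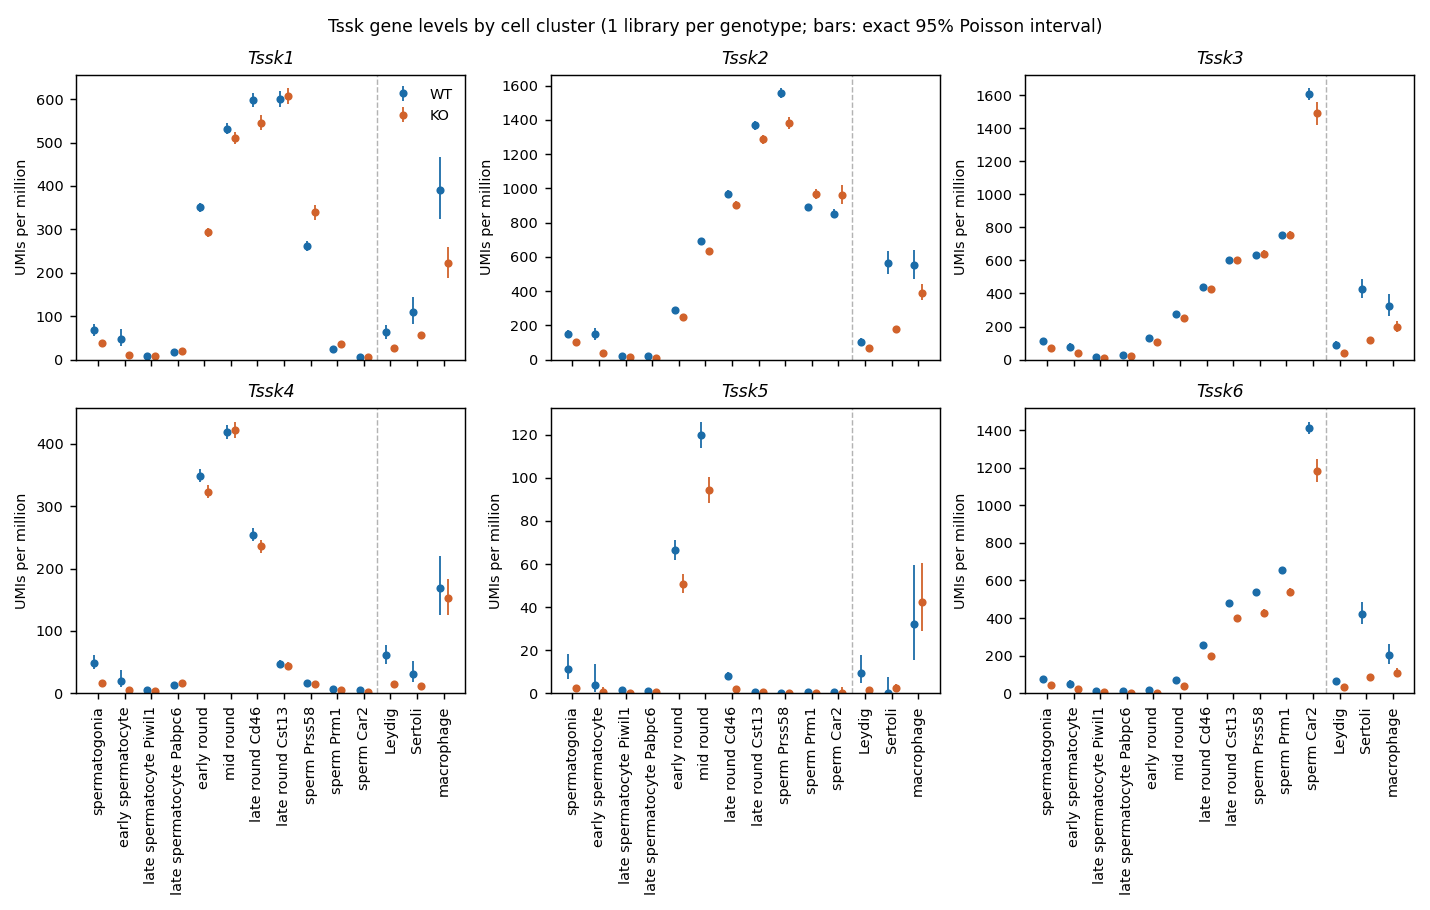
Level of each Tssk gene (y axis, UMIs per 1000000 UMIs of the cluster) in 14 cell clusters (x axis, germ cells in order of stage left of the dashed line, somatic cells right of it) in the WT library (blue) and the KO library (orange). Bars are exact 95% Poisson intervals. Tssk4 and Tssk5 peak in mid-stage round cells, Tssk1 in late-stage round cells, Tssk2 in the first sperm-like cluster, and Tssk3 and Tssk6 in the last, where Tssk3 stands at 1607 CPM in WT and 1489 CPM in KO.

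Tssk4, the ODF2 kinase, came up at once after meiosis. In the late spermatocyte-like (Pabpc6) cluster it was at 13.4 CPM in WT and 15.7 CPM in KO, and in early-stage round cells at 348 CPM (338 to 359) in WT and 323 CPM (313 to 334) in KO. The highest level was in mid-stage round cells, at 418 CPM (407 to 430) in WT and 423 CPM (410 to 435) in KO. It then fell through 254 and 235 CPM in late-stage round (Cd46) cells to 47.4 and 44.5 CPM in late-stage round (Cst13) cells. These steps were far wider than the counting intervals. In sperm-like (Car2) cells 4.59 CPM was left in WT and 2.47 CPM in KO, which is 1.10% and 0.584% of the peak. These values rest on 23 and 3 UMIs and lie under the 5.72 and 4.01 CPM of late spermatocyte-like (Piwil1) cells.

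Tssk5 had the narrowest window of the 6. In WT it was at 66.6 CPM (62.1 to 71.4) in early-stage round cells, at 120 CPM (114 to 126) in mid-stage round cells, and at 7.96 CPM (6.21 to 10.1) in late-stage round (Cd46) cells. KO levels in these clusters were 50.9, 94.3 and 1.90 CPM. After that stage it was all but undetected, with 11 UMIs in WT and 1 in KO over the 3 sperm-like clusters. In KO it had 0 UMIs in sperm-like (Prss58) and sperm-like (Car2) cells, which allows up to 0.651 and 2.47 CPM at a limit of 3 counts. A finer grouping of the cells into 24 clusters placed the peak in 1 mid-stage round cluster, whose first leading gene was Tssk5 itself, at 165 CPM in WT and 127 CPM in KO.

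Tssk1 formed a plateau in round spermatids. Its WT level was 351 CPM in early-stage round cells, 531 CPM in mid-stage round cells, 598 CPM (582 to 615) in late-stage round (Cd46) cells and 600 CPM (583 to 618) in late-stage round (Cst13) cells, so that the late-stage round clusters did not differ beyond counting error. In KO the series was 293, 511, 546 (530 to 563) and 607 CPM (589 to 626), with a last step wider than its intervals. From there the gene fell to 262 CPM in WT and 339 CPM in KO in sperm-like (Prss58) cells, to 25.2 and 36.6 CPM in sperm-like (Prm1) cells, and to 5.99 and 6.58 CPM in sperm-like (Car2) cells. The last value was 0.998% of the peak in WT and 1.08% in KO, from 30 and 8 UMIs. It lay under the 8.97 and 7.82 CPM of late spermatocyte-like (Piwil1) cells.

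Tssk2, the tandem neighbour, rose for longer and stayed high. In WT it went from 289 CPM in early-stage round cells through 693, 970 and 1369 CPM to 1556 CPM (1527 to 1586) in sperm-like (Prss58) cells. The KO series for the same clusters was 248, 634, 903, 1287 and 1380 CPM. Unlike Tssk1 it kept much of its level to the end, with 890 and 967 CPM in sperm-like (Prm1) cells and 853 and 963 CPM in sperm-like (Car2) cells of WT and KO. The intervals of the last 2 clusters overlapped in both libraries.

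Tssk3 and Tssk6 were the late members. Tssk3, a kinase that PDPK1 can phosphorylate, was already at 130 CPM in early-stage round cells of WT and 109 CPM in KO. It reached 600 and 601 CPM in late-stage round (Cst13) cells, stood at 632 and 637 CPM in sperm-like (Prss58) cells and at 753 and 754 CPM in sperm-like (Prm1) cells, and was highest in sperm-like (Car2) cells at 1607 CPM (1572 to 1642) in WT and 1489 CPM (1421 to 1559) in KO. This last step was the steepest among the sperm-like clusters, since sperm-like (Prm1) cells were at only 46.9% of the peak in WT and 50.6% in KO.

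Tssk6 was the last member to appear. In early-stage round cells it was at 16.3 CPM in WT and 3.84 CPM in KO, close to or under the 13.0 and 4.39 CPM of the late spermatocyte-like (Piwil1) cluster of each library. It came to 72.1 CPM (67.5 to 77.0) in mid-stage round cells of WT and 37.1 CPM (33.5 to 41.1) in KO, and to 258 and 201 CPM in late-stage round (Cd46) cells. Its level then rose through 482 and 401 CPM, 538 and 427 CPM, and 654 and 538 CPM to 1411 CPM (1378 to 1444) in sperm-like (Car2) cells of WT and 1182 CPM (1122 to 1245) of KO. At the stage where Tssk5 peaked, Tssk6 was at 5.11% of its own peak in WT and 3.14% in KO.

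The parting of Tssk1 and Tssk2 was gradual and had the same form in both libraries. Of the UMIs of the pair, Tssk1 gave 54.8% (53.7 to 55.9) in early-stage round cells of WT and 54.2% (52.9 to 55.5) of KO. This share fell in every later cluster, to 30.5% and 32.0% in late-stage round (Cst13) cells, to 14.4% (13.8 to 15.03) and 19.7% (18.9 to 20.6) in sperm-like (Prss58) cells, and to 0.697% and 0.679% in sperm-like (Car2) cells. The KO share was the higher in sperm-like (Prss58) cells and in sperm-like (Prm1) cells, at 3.65% (3.12 to 4.23) against 2.75% (2.43 to 3.10), with intervals that did not overlap. In late-stage round (Cst13) cells the intervals met end to end. The share describes the change from cluster to cluster and not which of the 2 transcripts was the more abundant.

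**Figure D2:**
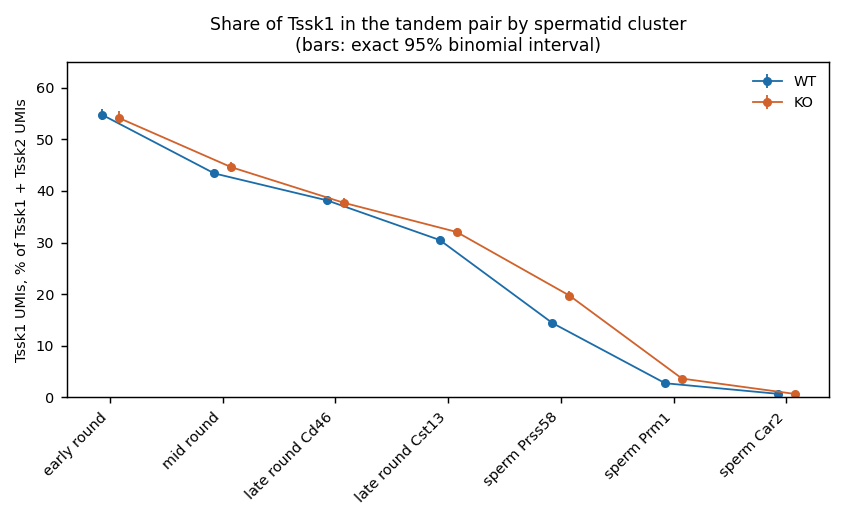
Share of Tssk1 in the UMIs of the tandem pair Tssk1 and Tssk2 (y axis, %) in the 7 spermatid clusters in order of stage (x axis) in WT (blue) and KO (orange), with exact 95% binomial intervals. The share falls from 54.8% to 0.697% in WT and from 54.2% to 0.679% in KO, and the KO point lies above the WT point in sperm-like (Prss58) cells.

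In the finer grouping, 6 sperm-like clusters divided the range over which Tssk1 fell. Its WT level went from 607 CPM in the first of them through 402, 112, 44.9 and 13.3 CPM to 6.03 CPM in the last. Tssk2 in the same 6 clusters was at 1484, 1614, 1495, 1156, 725 and 853 CPM. At this resolution 4 of 6 members had their highest WT level in a sperm-like cluster, although Tssk1 was between 594 and 607 CPM in 4 clusters in a row. Tssk1 was the added member, in the first of the 6 finer sperm-like clusters. The leading genes of that cluster included 1700036O09Rik, Rnf144a, Prss51 and Ccdc185. These genes also led the late-stage round (Cst13) cluster of the main grouping, so the added member depends on how such cells are classed.

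Most spermatids held transcripts of several members at once. After each cell was thinned to 5729 UMIs, which left out 362 WT and 914 KO cells, the mean number of members with at least 1 UMI was 3.12 in early-stage round cells of WT and 2.89 of KO, and it was highest in late-stage round (Cd46) cells at 4.27 and 4.17. In the 3 sperm-like clusters it was 3.63, 3.08 and 3.02 in WT and 3.69, 3.09 and 3.03 in KO. Of sperm-like (Car2) cells, 90.7% in WT and 91.6% in KO had exactly 3 members. All 6 members were seen together in 3.92% of mid-stage round cells of WT and 1.97% of KO, the cluster with the largest such share.

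**Figure D3:**
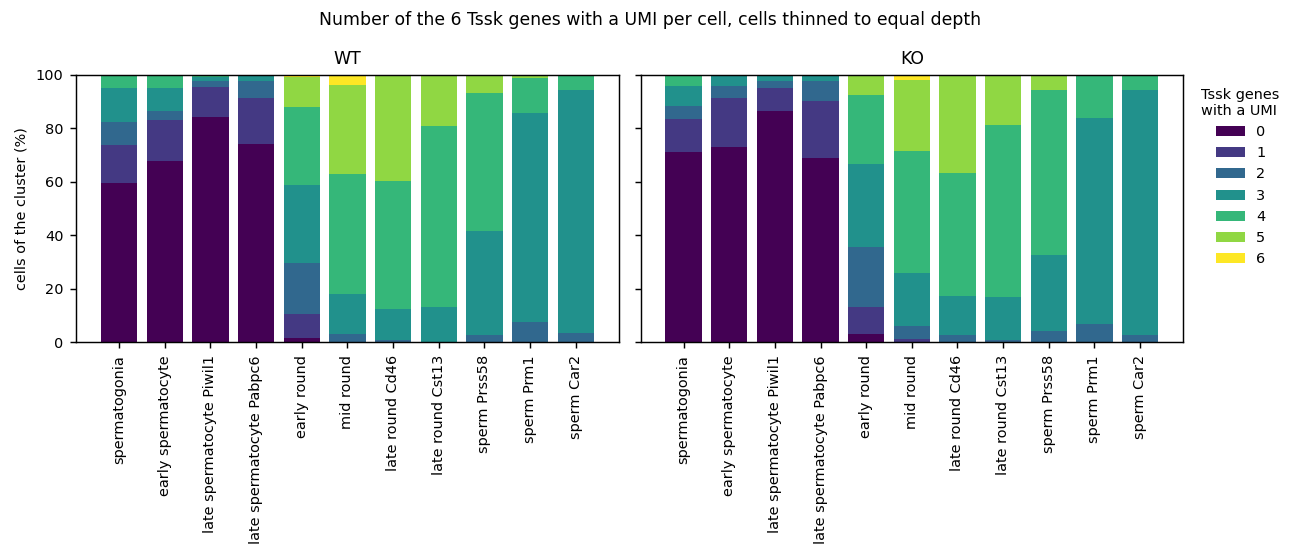
Share of cells (y axis, %) by the number of the 6 Tssk genes with at least 1 UMI (colour, 0 to 6), for the 11 germ cell clusters in order of stage (x axis) in WT (left) and KO (right), after every cell was thinned to 5729 UMIs. Cells with 0 members make up 73.9% of late spermatocyte-like (Pabpc6) cells of WT but 1.58% of early-stage round cells, and cells with 3 members make up 90.7% of sperm-like (Car2) cells.

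Tssk2 was found in nearly every later spermatid. A thinned cell had a Tssk2 UMI in 69.3% of early-stage round cells of WT, in 97.1% of mid-stage round cells and in 97.6% of sperm-like (Car2) cells, and the unthinned shares were 82.8%, 99.7% and 98.6%. Leydig-like cells, which should lack the transcript, had one in 18.4% of thinned WT cells and 12.8% of thinned KO cells (23.2% and 14.0% unthinned), at a median depth of 9977 and 7852.5 UMIs. Shares of spermatogonia-like cells were of this size, at 25.7% and 18.5% after thinning. Tssk5 was found in fewer cells even at its peak, with 46.8% of thinned mid-stage round cells in WT and 35.3% in KO (72.9% and 57.8% unthinned), against 3.45% and 0.401% of thinned Leydig-like cells.

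Outside the spermatids most members were low but not at 0, in germ cells before meiosis and in somatic cells alike. The exceptions were Tssk5 at 0 UMIs in the 49 Sertoli-like cells of WT, which allows up to 6.31 CPM, and several members in the endothelial-like cluster, which held 1 WT and 24 KO cells. Across the 4 spermatogonia-like and spermatocyte-like clusters of WT, Tssk6 lay between 9.41 and 78.3 CPM and Tssk2 between 18.6 and 150 CPM. The lowest values were in late spermatocyte-like cells and not in spermatogonia-like cells. Transcripts of 12 late sperm markers, Prm2, Oaz3 and Akap4 among them, were also found in these clusters. Their median was 5.57% of the level of the sperm-like (Car2) cluster in spermatogonia-like cells of WT, 0.877% in late spermatocyte-like (Piwil1) cells and 3.97% in Leydig-like cells, and Tssk6 was at 5.55%, 0.919% and 4.498%. Tssk3 was at 6.97%, 0.890% and 5.63%. Tssk2 was higher on this scale, at 17.6%, 2.37% and 12.1%. It lay above the range of the markers, which was 4.64% to 7.45%, 0.788% to 1.16% and 3.15% to 5.26%. None of the 12 markers was at 0 in these clusters. The scale takes the sperm-like (Car2) level as 100%, and there Tssk2 was below its peak. In sperm-like (Prss58) cells of WT Tssk2 was at 182%, but the markers were at 33.6% to 53.4%. The part of this choice of scale in the higher percentages of Tssk2 was not tested. The part of RNA from other cells in these levels was not tested.

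Sertoli-like and macrophage-like cells carried more. Sertoli-like cells were at 565 CPM of Tssk2, 427 CPM of Tssk3 and 423 CPM of Tssk6 in WT, from 49 cells, and at 178, 117 and 85.3 CPM in KO, from 471 cells. In Sertoli-like cells the 12 late sperm markers ranged from 24.8% to 34.7% of their sperm-like (Car2) level in WT (median 29.6%) and from 6.61% to 8.09% in KO (median 7.21%). Tssk6 in Sertoli-like cells was at 29.9% and 7.21% of its own, and Tssk3 at 26.6% and 7.86%. Tssk2 was at 66.3% and 18.5%, above the markers in both libraries, on the same scale. Macrophage-like cells, 24 in WT and 70 in KO, were at 391 and 222 CPM of Tssk1 and at 32.3 and 42.5 CPM of Tssk5.

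Between the genotypes, the levels of the members within a cluster differed little next to their differences between stages. The 6 genes and 11 germ cell clusters make 66 pairs, of which 34 were tested because the gene was detected in 25% or more of WT or of KO cells. None of these 34 differed by 0.25 or more, in either direction, in the natural log of mean expression plus 1. Means were of counts scaled to 10000 per cell, and adding 1 shrinks differences where the mean is low. Tssk6 in mid-stage round cells, at a log2 ratio of -0.96, came to -0.21 on this scale. The limit of 0.25 is the default of the software version and was not stated by the study. Over all genes and germ cell clusters 2.77% of the tested pairs passed as higher in KO and 1.73% as lower. In the spermatid clusters, which held 31 of the 34 member pairs, the shares were 3.82% and 1.42%. A count of 0 among so few pairs lies near these shares and does not set the members apart.

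**Figure D4:**
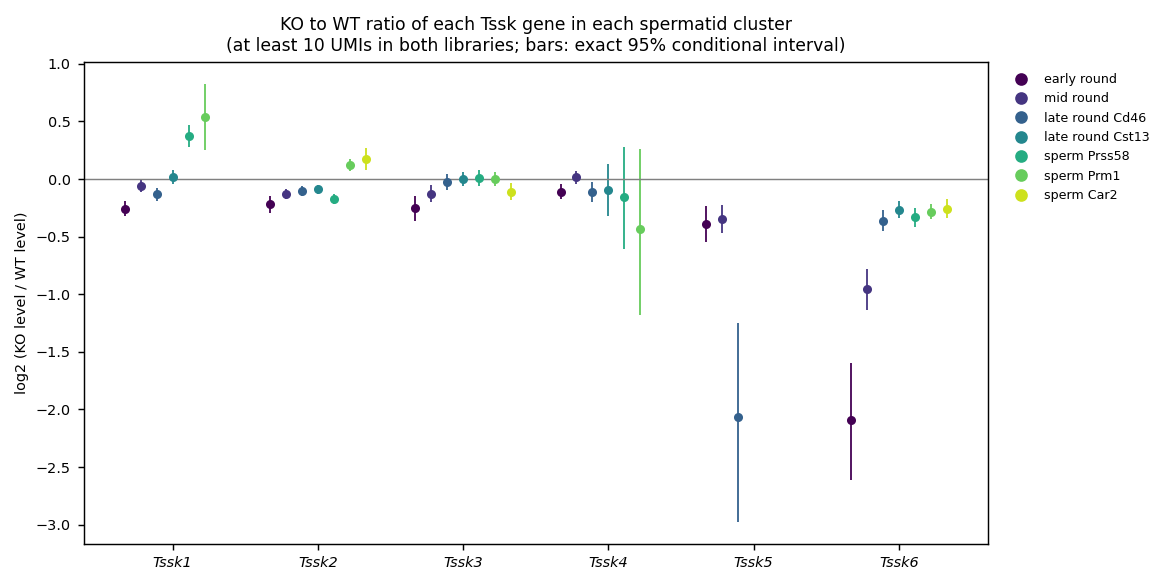
KO to WT ratio of the level of each Tssk gene (y axis, log2) in each of the 7 spermatid clusters (colour, in order of stage), with exact 95% intervals, for pairs with at least 10 UMIs in both libraries. Tssk6 lies below 0 in all 7 clusters, Tssk5 in the 3 clusters shown, and Tssk1 lies above 0 in sperm-like (Prss58) and sperm-like (Prm1) cells.

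Averaged over the 7 spermatid clusters with equal weight, all 6 members were lower in KO, and the median of their log2 ratios was -0.06. Of 7129 genes tested in a spermatid cluster, 3228 were lower in KO, and the median of all was 0.03. Tssk1 was at -0.02 (-0.05 to 0.01), Tssk2 at -0.05 (-0.08 to -0.03), Tssk3 at -0.05 (-0.09 to -0.02) and Tssk4 at -0.07 (-0.10 to -0.03). These 4 members were at 0.956 to 0.986 of the WT level. Tssk5 and Tssk6 stood further away, at -0.41 (-0.50 to -0.31) and -0.30 (-0.34 to -0.26), or 0.754 and 0.813 of the WT level. Both lay below the lower quartile of all genes, which was at -0.14.

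Pooling the UMIs of all spermatids, in place of equal weight per cluster, mixed the levels with the numbers of cells at each stage. Tssk1 then came to 0.16 and Tssk4 to 0.16, above 0, while Tssk3 came to -0.33 and Tssk6 to -0.75. Tssk2 came to -0.12 and Tssk5, although it peaked early, to -0.20. The KO library had the smaller share of sperm-like cells, and its part in these pooled values was not tested. Over the whole libraries, Tssk6 had 25020 UMIs in WT and 11831 in KO.

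Tssk6 was lower in KO in every spermatid cluster. The log2 ratio was -2.09 (-2.61 to -1.60) in early-stage round cells, from 198 and 41 UMIs, and -0.96 (-1.14 to -0.78) in mid-stage round cells. In the later 5 clusters it lay between -0.36 and -0.26. The late sperm markers moved in the same direction in the first 2 of these clusters, where the median log2 ratio of the 12 was -1.29 with 12 of 12 below 0 in early-stage round cells and -0.49 with 11 of 12 below 0 in mid-stage round cells. In the later 5 clusters their medians were between -0.11 and -0.07, with 8 of 12 below 0 in each. The 12 ranged from -0.30 to 0.31 in late-stage round (Cd46) cells, where Tssk6 at -0.36 lay below them all. In the clusters after that, Tssk6 lay within their range. Their lowest values there were between -0.53 and -0.32 and their highest between 0.19 and 0.33.

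Subtracting the level of the late spermatocyte-like (Piwil1) cluster of the same library, an alternative added after the data had been seen, left 3.37 CPM of Tssk6 in early-stage round cells of WT and nothing in KO. In mid-stage round cells it left 59.2 and 32.7 CPM, a log2 ratio of -0.85. In the finer grouping, the 2 mid-stage round clusters were at -0.53 (-1.03 to -0.03) and -0.59 (-0.77 to -0.42), so the size of the difference at this stage depended on how the cells were divided. The 6 finer sperm-like clusters lay between -0.35 and -0.26.

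Tssk5 was lower in KO in the 2 clusters that hold nearly all of its UMIs. The log2 ratio was -0.39 (-0.55 to -0.23) in early-stage round cells, from 807 and 543 UMIs, and -0.35 (-0.46 to -0.23) in mid-stage round cells, from 1512 and 960. In late-stage round (Cd46) cells 70 UMIs in WT stood against 15 in KO, a ratio of -2.06 (-2.98 to -1.25). This last value depended on the grouping, since the finer cluster led by Cd46 was at -1.42 (-3.06 to 0.01), from 16 and 6 UMIs. The finer early-stage round clusters were at 0.12 (-0.42 to 0.66) and -0.36 (-0.52 to -0.19), and the finer mid-stage round clusters at -0.38 (-0.52 to -0.25) and -0.72 (-0.99 to -0.45). Tssk4, which peaked in the same cluster, was at -0.11 (-0.17 to -0.04), 0.01 (-0.04 to 0.07) and -0.11 (-0.20 to -0.02) in these 3 clusters.

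Tssk1 changed sign along the stages. It was lower in KO in early-stage round cells, at -0.26 (-0.32 to -0.19). In late-stage round (Cst13) cells it did not differ beyond counting error, at 0.02 (-0.05 to 0.08). It was higher in sperm-like (Prss58) cells, at 0.37 (0.28 to 0.47), and sperm-like (Prm1) cells, at 0.54 (0.25 to 0.83). In the last cluster, sperm-like (Car2), the interval included 0, at 0.14 (-1.20 to 1.29), from 30 and 8 UMIs. In the finer grouping the ratio was 0.85 (0.65 to 1.06) in the sperm-like cluster led by Tnp2, which held 292 WT and 205 KO cells, and this pair passed the size criterion as higher in KO, as did 3.35% of all pairs in the finer grouping. A cluster led by Tnp2 also formed when the members were among the variable features, and there Tssk1 was at 75.2 CPM in WT and 124 CPM in KO and again passed, as did 2.9% of all pairs. The finer cluster before it was at 0.17 (0.06 to 0.28). The sperm-like (Prm1) cells fell into 2 finer clusters, of which the one led by Tex37 was at 0.50 (0.18 to 0.83) and the one led by 1700008P02Rik at -0.54 (-1.31 to 0.16), so the value of 0.54 did not hold in both. The Tex37 cluster, where Tssk1 was the higher, took 35.4% of the sperm-like (Prm1) cells of WT and 46.8% of those of KO. The part of this difference in the ratio was not tested.

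Tssk2 followed with smaller values. It was lower in KO from early-stage round cells, at -0.22 (-0.29 to -0.15), to sperm-like (Prss58) cells, at -0.17 (-0.22 to -0.13), and higher in sperm-like (Prm1) cells, at 0.12 (0.07 to 0.17), and sperm-like (Car2) cells, at 0.17 (0.08 to 0.27). Tssk3 was at -0.25 (-0.37 to -0.14) in early-stage round cells, and its interval included 0 in the 4 clusters from late-stage round (Cd46) to sperm-like (Prm1). With a limit of 10% of cells in place of 25%, 1 pair passed as lower in KO, against 1.2% of all pairs. This was Tssk2 in early spermatocyte-like cells, at 147 CPM in WT from 79 UMIs and 37.0 CPM in KO from 68 UMIs, a cluster in which the median late sperm marker stood at 5.01% (WT) and 2.33% (KO) of its sperm-like (Car2) level. The part of RNA from other cells in this difference was not tested. Over the 42 pairs of a member and a spermatid cluster, the interval lay above 0 in 4, below 0 in 23 and included 0 in 15. For the partners and substrates described below, the same counts were 20, 21 and 22 of 63 pairs. For the other protein kinases they were 7, 8 and 55 of 70. The shares over all genes were not computed, so these counts do not set the members apart.

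The partners and substrates of the kinases had their highest levels at stages from spermatogonia (Hspa8) to the last sperm-like cluster (Tsks and Odf2). Tsks, the scaffold bound by TSSK1 and TSSK2, rose from 75.4 CPM in early-stage round cells of WT to 404 CPM in sperm-like (Car2) cells, and in KO from 62.4 to 435 CPM. Odf2, the substrate of TSSK4, rose from 793 and 818 CPM to 5317 and 5846 CPM. Tsacc, a co-chaperone of TSSK6, was present before meiosis ended, at 376 CPM in late spermatocyte-like (Pabpc6) cells of WT and 401 CPM of KO, and was highest in sperm-like (Prss58) cells of WT at 687 CPM. Crem, the transcription factor of haploid germ cells, was nearly level over early-stage and mid-stage round cells. It was at 717 and 660 CPM in the first and at 727 and 682 CPM in the second, the cluster where Tssk4 and Tssk5 peaked. Hsp90aa1 and H2afx were past their peaks before Tssk6 appeared, with Hsp90aa1 at 2521 CPM in late spermatocyte-like (Piwil1) cells of WT and 52.5 CPM in sperm-like (Car2) cells.

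**Figure D5:**
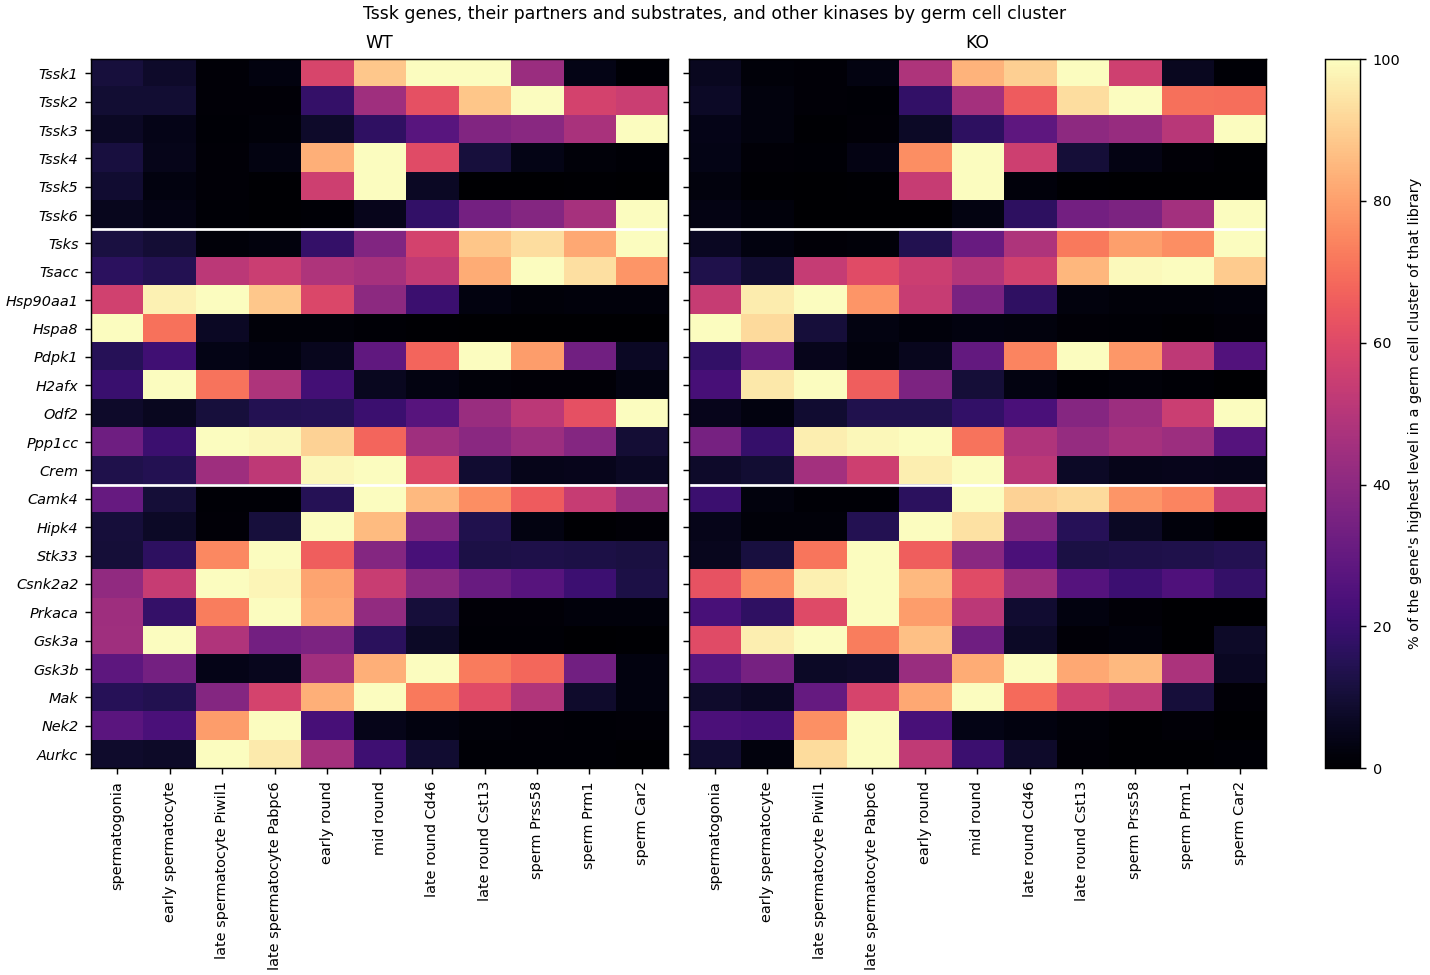
Level of the 6 Tssk genes (top block), of 9 partners and substrates (middle block) and of 10 other protein kinases (bottom block) in the 11 germ cell clusters in order of stage (x axis), as a percent of the highest germ cell level of that gene in that library (colour), in WT (left) and KO (right). The 2 panels have the same order of peaks for the Tssk genes, and several other kinases, such as Nek2 and Aurkc, peak in spermatocyte-like clusters where the Tssk genes are near 0%.

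Of the 79 tested pairs of the 9 partners and substrates with germ cell clusters, 1 was higher in KO and 0 were lower, against 2.77% and 1.73% of all pairs. That pair was Pdpk1, the kinase that can act on TSSK3, in sperm-like (Car2) cells at 42.1 CPM in WT and 130 CPM in KO, a log2 ratio of 1.63 (1.32 to 1.93). In this cluster 13.2% of all genes tested passed as higher. Over spermatids with equal weight the list had a median log2 ratio of 0.01, with 5 of 9 genes above 0. Tsks was at -0.07 (-0.11 to -0.02), Tsacc at 0.04 (0.01 to 0.07), Odf2 at 0.01 (-0.0028 to 0.03) and Crem at -0.17 (-0.20 to -0.14). Hspa8 was the furthest from 0, at 1.30 (1.08 to 1.52), from 326 UMIs in WT and 555 in KO. It was at 853 CPM in Leydig-like cells of WT and 1073 CPM of KO, against means of 4.24 and 10.4 CPM in spermatids.

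The 10 other protein kinases gave 57 tested pairs, of which 0 passed in either direction, and a median of -0.04 over spermatids with 6 of 10 below 0. Their stages overlapped those of the Tssk genes only in part. Nek2, Stk33, Aurkc, Csnk2a2 and Prkaca were highest in spermatocyte-like cells of WT, with Stk33 at 550 CPM and Nek2 at 179 CPM in the (Pabpc6) cluster. Camk4 and Mak were highest in mid-stage round cells of WT at 142 and 193 CPM, the cluster where Tssk4 and Tssk5 peaked. Gsk3b was highest in late-stage round (Cd46) cells at 300.4 CPM. Of these kinases none had its highest germ cell level in a sperm-like cluster.

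The genes whose levels were most like those of each member over the 15 WT clusters were taken by Pearson correlation of log2(CPM + 1), among 6333 genes with at least 1000 UMIs in each library. For Tssk6 these were Gm498, 1700080E11Rik and 1700009J07Rik, with r between 0.995 and 0.997 in WT and between 0.991 and 0.997 in KO. For Tssk3 they were Smcp, which encodes a protein of the sperm mitochondrial capsule, Spz1 and St6galnac2 (0.990 to 0.994 in WT, 0.969 to 0.990 in KO). Tssk2 was most like 1700019D03Rik, Fam205c and 1700017L05Rik, and Tssk1 most like Cypt2, BC049762 and Gm31752, at 0.962 to 0.970 in WT. Pdzk1ip1, Prkg1 and 4933434M16Rik were nearest to Tssk4 at 0.986 to 0.991 in WT but at 0.854 to 0.898 in KO, and Slc39a12, Gm36368 and 4932429P05Rik to Tssk5. The points share libraries and depths, so these values are a description. The endothelial-like point rests on 1 cell in WT, where 2 UMIs put Tssk4 at 264 CPM. Without that cluster, an alternative added after the data had been seen, 11 of the 18 named genes stayed among the nearest, and Pdzk1ip1 and Prkg1 were at 0.990 and 0.987 with Tssk4 in WT and at 0.975 and 0.965 in KO. Within the family the pair with the highest r was Tssk2 and Tssk3, at 0.943 in WT and 0.9497 in KO, while the tandem pair Tssk1 and Tssk2 had 0.565 and 0.672.

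Some members overlap other genes, and whether the counting used the strand of the reads is not given in the sources used here. Tssk1 lies wholly within Dgcr2 on the opposite strand, and Tssk6 overlaps Ndufa13 by 375 bases and Yjefn3 by 529 bases, all on the opposite strand. Dgcr2 was low in all germ cells, at 20.1 CPM in late-stage round (Cd46) cells of WT, 8.98 CPM in late-stage round (Cst13) cells and 3.99 CPM in sperm-like (Car2) cells. It thus fell over the clusters in which Tssk1 fell. Tssk1 was at 598, 600 and 5.99 CPM in the same clusters of WT. Ndufa13, a respiratory chain subunit, was at 490 CPM in spermatogonia-like cells of WT and at 311 CPM in sperm-like (Car2) cells, where Tssk6 peaked. Yjefn3 stayed under 1 CPM in every spermatid cluster of WT. If the counting did not use the strand, reads from these genes and from the members cannot be told apart where they overlap. The overlaps of Tssk6 lie at the start of the gene. The part of such reads in the counts of Tssk1 and Tssk6 was not tested.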

How the data were processed

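Testis cells were profiled by single-cell RNA sequencing on the GEXSCOPE platform, with 1 WT and 1 KO library. The authors deposited 1 matrix of raw UMI counts per library, with genes in rows and cells in columns. The submitters' processing notes name featureCounts 1.6.2 for counting, FastQC 0.11.7, fastp 1 and STAR 2.5.3a. The methods name a human genome with Ensembl 92 annotation, whereas the gene symbols in the matrices are those of the mouse. Reads were of 150 bases.

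Cells with over 500 genes were integrated in Seurat 5.3.0 (R 4.3.3, Matrix 1.6.5) with 2000 variable features, 20 anchor dimensions, 30 principal components, resolution 0.3 and seed 1. The 6 Tssk genes were removed from the variable features, since Tssk4, Tssk5 and Tssk6 would have been among them. A cluster was named after the class of its markers where at least 3 were detected, a marker counting when it was in 10% of cells and 2-fold above the other clusters. Scrublet (scanpy 1.11.5, expected rate 0.06) called 4.24% of WT and 4.92% of KO barcodes doublets, which were kept. UMIs were summed per cluster and library with pandas 2.3.3 and numpy 2.4.6 under Python 3.11.15, intervals were computed with scipy 1.17.1, and plots were drawn with matplotlib 3.10.9. Sums carry exact Poisson intervals, shares exact Clopper-Pearson intervals, ratios exact conditional intervals and equal-weight ratios delta-method intervals, all at 95% and for counting error only. A pair of a gene and a cluster was tested where the gene was detected in 25% or more of WT or of KO cells. Counts were scaled to 10000 per cell and averaged over cells, and 1 was added to each mean before the natural log. A pair passed at a difference of 0.25 on this scale. The 25% limit is that of the study, the 0.25 limit is the software default of that time and no p-value over cells was used. The script was tested on simulated data.

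Coordinates came from GENCODE vM21 (GRCm38) by symbol. The members and gene lists were chosen with earlier results of these data known. The genes named are the 6 members, the fixed lists of partners, substrates and other kinases, late sperm markers, overlapping genes and the 3 genes most like each member. The alternatives were other clusterings (the members among the variable features, resolution 0.8, no integration, no doublets, over 1000 genes per cell), thinned cells, totals without mitochondrial and ribosomal protein genes, a 10% limit in place of 25%, pooled UMIs, and round or sperm-like clusters alone.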

Additional observations from a re-analysis of the deposited data

Results flagged for a closer look

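The KO to WT log2 ratio of Tssk1 had opposite signs in an early and a late spermatid cluster. It was 0.54 in sperm-like (Prm1) cells and -0.26 in early-stage round cells. In the last cluster, sperm-like (Car2), it was 0.14 (-1.20 to 1.29), from 30 and 8 UMIs, an interval that includes 0. Tssk2, its tandem neighbour, also changed sign, at 0.17 in sperm-like (Car2) cells and -0.22 in early-stage round cells. The Tssk1 value in sperm-like (Prm1) cells depended on how they were divided. It was 0.50 (0.18 to 0.83) and -0.54 (-1.31 to 0.16) in the 2 finer clusters they fell into. Each value compares 1 library with 1 library, and the differences between clusters were not tested.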

How the results depend on the processing

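Of 38 summary values under the alternatives, 32 stayed within the limits set for them and 6 moved. The 32 include the number of members with their highest WT level in a sperm-like cluster, which was 4 at resolution 0.8 in place of 3. The added member was Tssk1, in a finer sperm-like cluster that shared leading genes with the late-stage round (Cst13) cluster. The number of member pairs higher in KO was 1 in place of 0 with the members among the variable features and 1 at resolution 0.8, in both cases Tssk1 in a sperm-like cluster led by Tnp2. The number lower in KO was 1 with a limit of 10% of cells, namely Tssk2 in early spermatocyte-like cells, which the lower limit brought into the test. The median log2 ratio of the members was -0.16 with pooled UMIs, -0.10 in round spermatid-like clusters alone and -0.17 in sperm-like clusters alone, where that of all genes was 0.13. The sperm-like median takes in Tssk5, which was all but undetected there, with 11 UMIs in WT and 1 in KO. For single genes 48 of 66 values stayed within the counting interval. The sign changed in 5, namely Tssk1 at 0.16 and Tssk4 at 0.16 with pooled UMIs, Tssk1 at 0.38 and Tssk2 at 0.0044 in sperm-like clusters alone, and Tssk1 at 0.0015 with thinned cells. Tssk3, Tssk5 and Tssk6 were below 0 in 11 of 11 alternatives, Tssk6 between -0.75 and -0.21 and Tssk5 between -2.59 and -0.20, the first of which rests on 11 UMIs in WT and 1 in KO. Where no construction of the alternative shows it, the cause was not tested. With 1 library per genotype no replicate could be left out. No paired analysis was possible because each genotype has 1 library and the comparison comes from no test.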
